A study of Mus musculus with 4 samples.

Results

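The gene set described here holds 31 genes of glucose breakdown and of the response to low oxygen, out of 32285 genes in both single-cell RNA matrices. It was taken as a list of symbols, all 31 of which were found in both matrices. It falls into 3 transporters (Slc2a1, Slc2a3, Slc16a3), 13 glycolytic enzymes (Hk1, Hk2, Gpi1, Pfkp, Pfkl, Aldoa, Tpi1, Gapdh, Pgk1, Pgam1, Eno1, Pkm and Ldha), the oxygen sensor group of Hif1a, Egln1 and Egln3, and 12 genes that hypoxia-inducible factors are known to switch on (Vegfa, Bnip3, Bnip3l, Ankrd37, Ndrg1, P4ha1, Pdk1, Ero1l, Ddit4, Adm, Car9 and Higd1a). Their unique molecular identifiers (UMIs, 1 per captured transcript) were summed over the cells of each type and written as counts per 1000000 UMIs of those cells (CPM).

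Glycolysis turns glucose into pyruvate and, through lactate dehydrogenase, into lactate, and activated T cells, myeloid cells and tumour cells are known to rely on it. Hif1a is made continuously and its protein is destroyed when oxygen is present, because the prolyl hydroxylases Egln1 and Egln3 mark it for breakdown. When oxygen is short, the protein persists, binds promoters and enhancers at a short core sequence, and raises transcription of most glycolytic enzymes and of its own hydroxylase Egln3.

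The mice were Thy1.2+ B6 hosts with a chimeric tumour, and each group received an adjuvant together with transferred Thy1.1+ Pmel-1 CD8 T cells, whose transgenic receptor recognises the melanocyte protein gp100. In the Tc9 group these cells had been polarised as Tc9 cells, the interleukin-9-secreting type of CD8 T cell, and in the Tc1 group as Tc1 cells, the interferon-gamma-secreting type. Tumours were taken on day 30 after inoculation, each group being a pool of 3 mice, and CD4 T cells were isolated for 5′ RNA and T cell receptor libraries. Each group is therefore 1 RNA library: mouse, tumour pool, library and treatment cannot be told apart, no test between groups was possible, and every interval given is a 95% interval that covers counting error only. In these pooled sums, more cells using a gene and more RNA per cell cannot be told apart.

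After filtering, 8204 Tc9 barcodes and 11933 Tc1 barcodes remained, with medians of 5179 and 4725 UMIs. Marker genes placed 4854 Tc9 barcodes (59.2%) and 6521 Tc1 barcodes (54.6%) in a gate, and no barcode was in more than 1. Although CD4 T cells had been isolated, the Tc9 library also held 45 macrophages, 35 monocytes low in C1q and 0 melanoma cells, and the Tc1 library 2313, 1289 and 168. The 6 gates with at least 50 cells in each library were effector CD4 (3292 Tc9 and 590 Tc1 cells), Foxp3 (952 and 148), naive-like CD4 (108 and 149), CD8 (196 and 1403), cycling T cells (100 and 366) and stromal cells (92 and 68). Red cell genes summed to 0.94 CPM in Tc9 effector CD4 cells and 3368 CPM in Tc1 effector CD4 cells, and macrophage markers to 15.0 and 283 CPM, with all 10 markers above 0 in both. Over the 5 T cell gates the macrophage markers ran from 12.9 to 17.8 CPM in Tc9 and from 128 to 290 CPM in Tc1. Melanoma markers in effector CD4 cells summed to 2.04 CPM in Tc9, with Dct, Tyrp1 and Tyr at 0, and 70.3 CPM in Tc1. The Tc1 melanoma gate had 13247 CPM of melanoma markers and 1114 CPM of macrophage markers. Macrophage markers summed to 9359 CPM in the Tc1 monocyte gate and 21601 CPM in the Tc1 macrophage gate. Monocyte markers summed to 6803 and 3462 CPM in the same gates, so these 2 gates share marker RNA.

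The promoters of 28 of the 31 genes were found in RefSeq (GRCm38.p6), and the 250 bases before the start were searched for ACGTG and for GCGTG, the core that hypoxia-inducible factors bind, on both strands. With the first listed promoter of each gene, 53.6% held ACGTG and 53.6% held GCGTG, with 22 of 28 (78.6%) holding at least 1 of them. Over 27025 genes the shares were 16.6%, 28.2% and 38.6%. The motifs contain CpG, which many of these promoters are rich in: among 6370 genes with at least the members' median of 16.5 CpG, 69.5% held either motif and 25.7% held ACGTG. The median of those 6370 genes was 23 CpG, so they are not matched to the members. The 6 sequences below are those of an enzyme with no match (Tpi1), enzymes with several (Pgk1, Ldha), the lactate exporter (Slc16a3), the mitophagy gene Bnip3 and the hydroxylase Egln3, the genes on which the later comparisons turn. Each runs 5′ to 3′ on the gene's own strand and ends at the base before the start, and capitals mark either motif on either strand.
Tpi1, chr6:124814159-124814408, minus strand: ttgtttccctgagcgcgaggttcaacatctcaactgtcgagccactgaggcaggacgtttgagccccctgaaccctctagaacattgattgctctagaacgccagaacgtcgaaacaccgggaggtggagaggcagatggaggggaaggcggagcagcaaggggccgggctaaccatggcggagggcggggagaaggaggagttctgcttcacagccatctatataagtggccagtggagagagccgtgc
Pgk1, chrX:106186850-106187099, plus strand: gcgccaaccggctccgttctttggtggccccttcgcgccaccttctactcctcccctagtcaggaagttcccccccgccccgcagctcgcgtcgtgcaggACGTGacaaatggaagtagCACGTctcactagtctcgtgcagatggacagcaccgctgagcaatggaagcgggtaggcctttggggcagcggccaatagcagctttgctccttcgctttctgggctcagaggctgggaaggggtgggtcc
Ldha, chr7:46845554-46845803, plus strand: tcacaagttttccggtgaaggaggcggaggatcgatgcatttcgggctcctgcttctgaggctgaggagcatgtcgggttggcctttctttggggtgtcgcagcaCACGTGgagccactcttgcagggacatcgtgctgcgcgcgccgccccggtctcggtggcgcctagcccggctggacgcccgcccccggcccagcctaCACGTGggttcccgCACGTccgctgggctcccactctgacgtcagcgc
Slc16a3, chr11:120948817-120949066, plus strand: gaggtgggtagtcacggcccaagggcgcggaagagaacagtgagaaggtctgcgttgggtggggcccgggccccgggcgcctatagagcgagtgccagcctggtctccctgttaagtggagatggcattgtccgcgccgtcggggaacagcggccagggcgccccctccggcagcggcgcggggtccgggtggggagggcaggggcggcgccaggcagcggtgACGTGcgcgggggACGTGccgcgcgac
Bnip3, chr7:138909507-138909756, minus strand: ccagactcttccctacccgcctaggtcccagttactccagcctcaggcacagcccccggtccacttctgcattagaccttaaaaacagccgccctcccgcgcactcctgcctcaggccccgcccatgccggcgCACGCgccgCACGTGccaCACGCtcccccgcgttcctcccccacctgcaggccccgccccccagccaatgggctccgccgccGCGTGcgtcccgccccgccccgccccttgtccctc
Egln3, chr12:54203875-54204124, minus strand: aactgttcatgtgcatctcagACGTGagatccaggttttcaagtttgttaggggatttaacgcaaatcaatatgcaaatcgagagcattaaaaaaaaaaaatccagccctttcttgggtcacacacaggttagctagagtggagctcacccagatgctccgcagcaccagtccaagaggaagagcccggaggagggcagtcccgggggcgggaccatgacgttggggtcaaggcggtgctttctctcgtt
In Ldha, 4 of the 5 matches are pairs from palindromes read on both strands. The single match in Egln3 begins at -229, while the pair in Slc16a3 begin at -27 and -14. A match describes letters only, and no binding was measured.

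Across cell types of the Tc1 tumour, where 9 gates had at least 50 cells, 27 of the 31 genes were highest outside T cells. Among these, Pfkp had overlapping intervals in monocytes (228 CPM) and cycling T cells (219 CPM). The same held for P4ha1 in stromal cells (173 CPM) and naive-like CD4 cells (150 CPM). Melanoma cells had the highest level of 16 genes, monocytes of 8 and stromal cells of 3. The share of all genes that were highest in each gate is not given, so these counts are a description. The 13 enzymes summed to 35477 CPM in Tc1 melanoma cells, 16106 in monocytes and 14199 in macrophages. Among T cells the sum was 10651 CPM in cycling cells, 10122 in Foxp3 cells, 7887 in effector CD4 cells, 6064 in CD8 cells and 3640 in naive-like CD4 cells. Gapdh, the enzyme that oxidises the split sugar, followed the same order at its ends, with 16003 CPM in melanoma cells (15925 to 16081) and 1240 CPM in naive-like CD4 cells (1155 to 1329). Macrophages (5567 CPM) and monocytes (5592 CPM) did not differ in Gapdh beyond their intervals. 

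**Figure D1:**
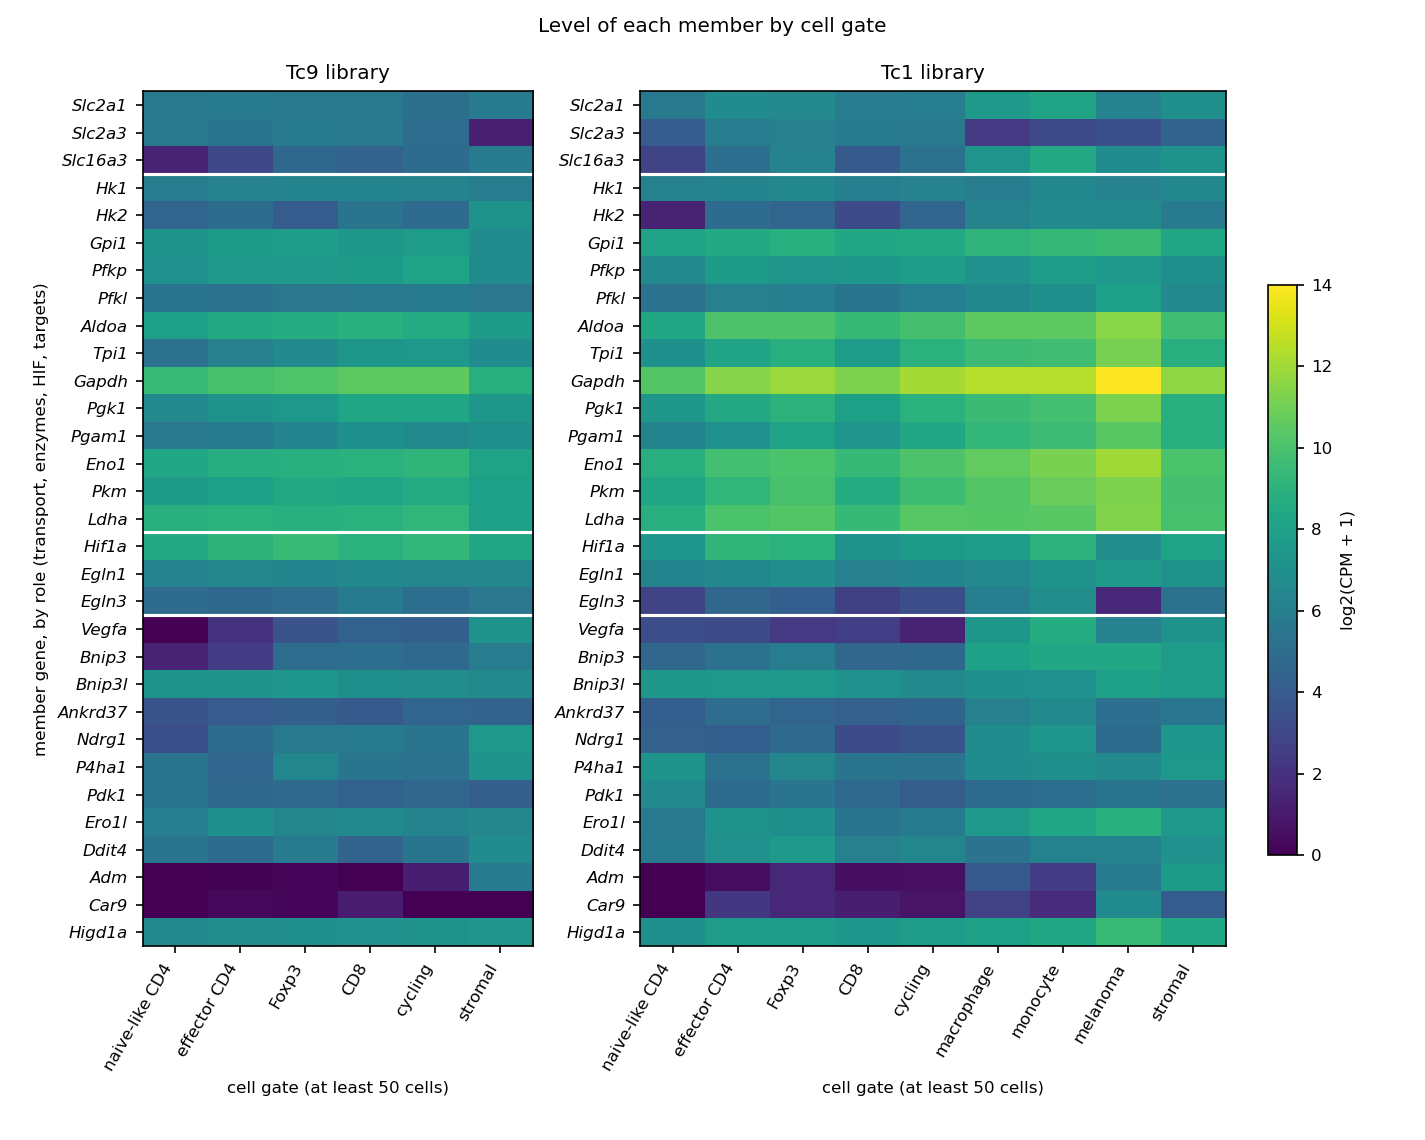
Levels of the 31 genes, as log2(CPM + 1), in the 6 Tc9 gates (left) and the 9 Tc1 gates (right) that had at least 50 cells; genes are ordered by role. Gapdh reaches 16003 CPM in Tc1 melanoma cells, where Hif1a has 121 CPM.

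The later enzymes of the pathway had like orders of gates in the Tc1 library and less so in the Tc9 library. Over the 9 Tc1 gates, the log2 level of Gapdh correlated with that of Tpi1 at a Pearson r of 0.99, with Pgk1 at 0.98, with Eno1 and Ldha at 0.97 and with Aldoa at 0.96. Over the 6 Tc9 gates the same values were 0.51 for Tpi1, 0.66 for Pgk1, 0.98 for Eno1, 0.90 for Ldha and 0.96 for Aldoa, and 0.12 for Pgam1. The points of each set come from 1 library and share its depth, so the values are a description. In Tc1, Hif1a (r = -0.12), the pyruvate dehydrogenase kinase Pdk1 (-0.36), which keeps pyruvate out of the mitochondrion, and the neuronal-type glucose transporter Slc2a3 (-0.42) did not share the order of Gapdh. In Tc9, which has no melanoma or myeloid gate, Hif1a had r = 0.80, Slc2a3 0.76 and Pdk1 -0.03. In Tc1 Hif1a had 561 CPM in effector CD4 cells, 505 in monocytes and 486 in Foxp3 cells, and its lowest level, 121 CPM, was in melanoma cells, where the enzymes were highest. Slc2a3 was highest in Tc1 Foxp3 cells at 67.1 CPM and lowest in macrophages at 4.02 CPM.

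The hypoxia-responsive genes were highest in different cell types. Vegfa, the blood vessel growth factor, had 412 CPM in Tc1 monocytes, 168 in macrophages and 141 in stromal cells, but 8.05 in effector CD4 cells and 1.65 in cycling T cells. Slc16a3, which carries lactate out of the cell, had 344 CPM in monocytes and 6.30 in naive-like CD4 cells. Car9, a carbonic anhydrase at the cell surface, had 107 CPM in melanoma cells and 16.1 in stromal cells, and no other gate of that library passed 5.53 CPM. Adm, the vessel-dilating peptide adrenomedullin, had 200 CPM in stromal cells and 52.7 in melanoma cells. Egln3 had 119 CPM in monocytes and 2.09 in melanoma cells, whereas its relative Egln1 had 142 and 182 CPM in the same cells. The hypoxia genes that were highest in a T cell gate were Ddit4, an inhibitor of mTOR signalling, with 187 CPM in Foxp3 cells, and Pdk1, with 97.7 CPM in naive-like CD4 cells. Bnip3 in melanoma cells and monocytes, Ndrg1 in stromal cells and monocytes, and Hk2 in monocytes and melanoma cells had overlapping intervals at the top of their orders.

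Pairs of related genes were used in different proportions, given here as the share of the first in the UMIs of both. Slc2a3 made up 41.1% of the pair with Slc2a1 in Tc1 Foxp3 cells and 48.0% in CD8 cells, but 2.12% in macrophages and 2.53% in monocytes. Bnip3, against its relative Bnip3l, was 17.3% in Tc1 effector CD4 cells and 70.5% in monocytes. Hk2, the inducible hexokinase, was 11.5% of the pair with the widely expressed Hk1 in Tc1 CD8 cells and 57.7% in melanoma cells. Hk1 itself stayed between 57.2 and 91.6 CPM over the 9 gates.

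The Tc9 library gave levels in 6 gates, which hold neither myeloid nor melanoma cells. Stromal cells were highest for 10 genes, cycling T cells for 9, CD8 cells for 6 and Foxp3 cells for 4, again without the share of all genes. The enzyme sum ran from 2236 CPM in Tc9 stromal cells to 4656 CPM in cycling cells, a narrower range than over the same 6 gates of the Tc1 library. Hif1a was highest in Tc9 Foxp3 cells at 730 CPM, and Hk2 was highest in stromal cells at 140 CPM, followed by CD8 cells at 40.8 CPM.

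Within gates, members were compared between the libraries where they reached 10 CPM on average and 10 UMIs together, and a member at least 1.5-fold apart was counted. In effector CD4 cells, the gate with most Tc9 cells, 17 of 28 such members were lower in Tc9 and 1 was higher, against 19% and 6.6% of 7563 genes. In Foxp3 cells 14 of 28 were lower and 3 higher, against 20.5% and 17.4% of 7825 genes. In naive-like CD4 cells 11 of 27 were lower and 4 higher, against 16.8% and 23.7% of 7451 genes. The naive-like gates differed in other RNA: naive markers summed to 1478 CPM in Tc9 and 2925 in Tc1 cells, effector markers to 639 and 298, Treg markers to 309 and 72.5, heat shock genes to 163 and 1011, and red cell genes to 0 and 11627. Their part in the result was not tested. Cycling T cells had 12 of 28 lower and 3 higher, against 19.1% and 18.7% of 7937 genes. The cycling gates differed in make-up: CD8 markers summed to 128 CPM in Tc9 and 994 in Tc1 cells, Cd4 had 130 and 33.4, and Treg markers 1489 and 496. What this brings to the cycling ratios was not tested. Stromal cells had 22 of 30 lower and 1 higher, against 21.5% and 30.2% of 9154 genes. In CD8 cells 3 of 29 members were lower and 6 were higher, against 20% and 15.1% of 7666 genes. Of the CD8 cells, 66.8% in Tc9 and 2.07% in Tc1 carried a receptor chain found in both receptor libraries, so these gates differed in make-up. Without those cells 9 of 29 members were lower and 7 higher, against 23.1% and 16.7% of all genes.

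**Figure D2:**
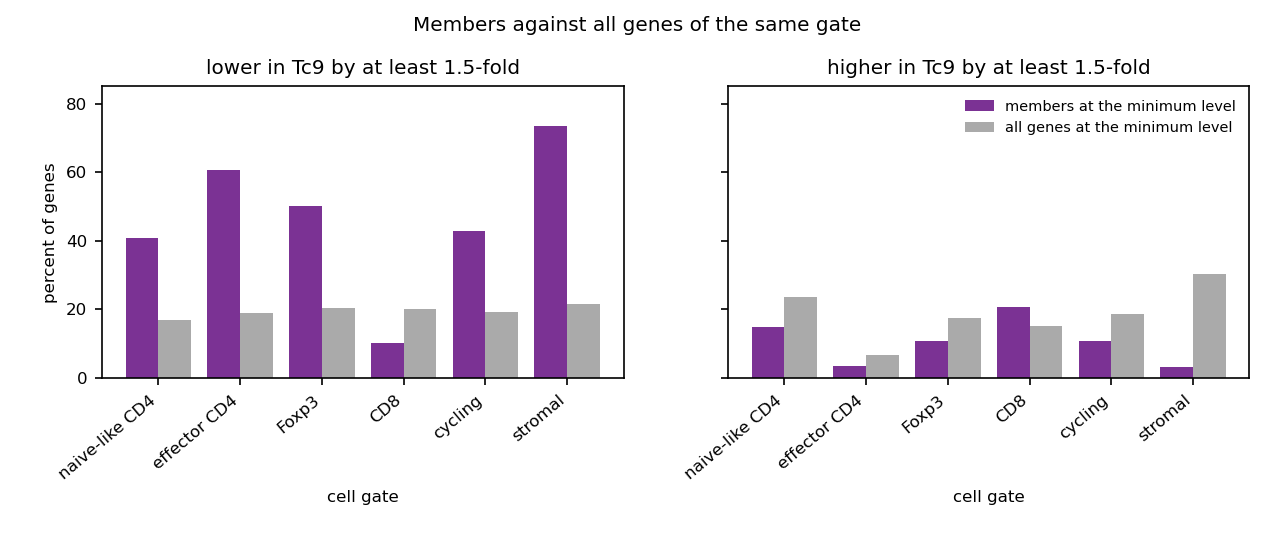
Share of measured members (purple) and of all measured genes (grey), in percent, that were at least 1.5-fold lower (left) or higher (right) in Tc9 than in Tc1 cells of each gate. The purple bars exceed the grey ones on the left in 5 gates, and in CD8 cells they do not, though without cells carrying a shared receptor chain 9 of 29 CD8 members were lower, against 23.1% of all genes.

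The median log2 ratio of Tc9 over Tc1 was -0.86 for the 28 members in effector CD4 cells, where that of all genes was -0.14. It was -0.67 in Foxp3 cells (all genes -0.03), -0.44 in naive-like CD4 cells (0.11), -0.32 in cycling cells (0.01) and -1.06 in stromal cells (0.14). In CD8 cells the members' median was -0.07, the same as that of all genes. Gpi1 and Gapdh were at least 1.5-fold lower in Tc9 in each of the 6 gates, while 25 members were lower in at least 1 gate, 7 were higher in at least 1 and 3 did both. In single gates 16.8% to 21.5% of all genes were lower and 6.6% to 30.2% higher. The shares of all genes that meet these rules over the 6 gates are not given, so the counts are a description. Car9 reached the minimum in none.

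**Figure D3:**
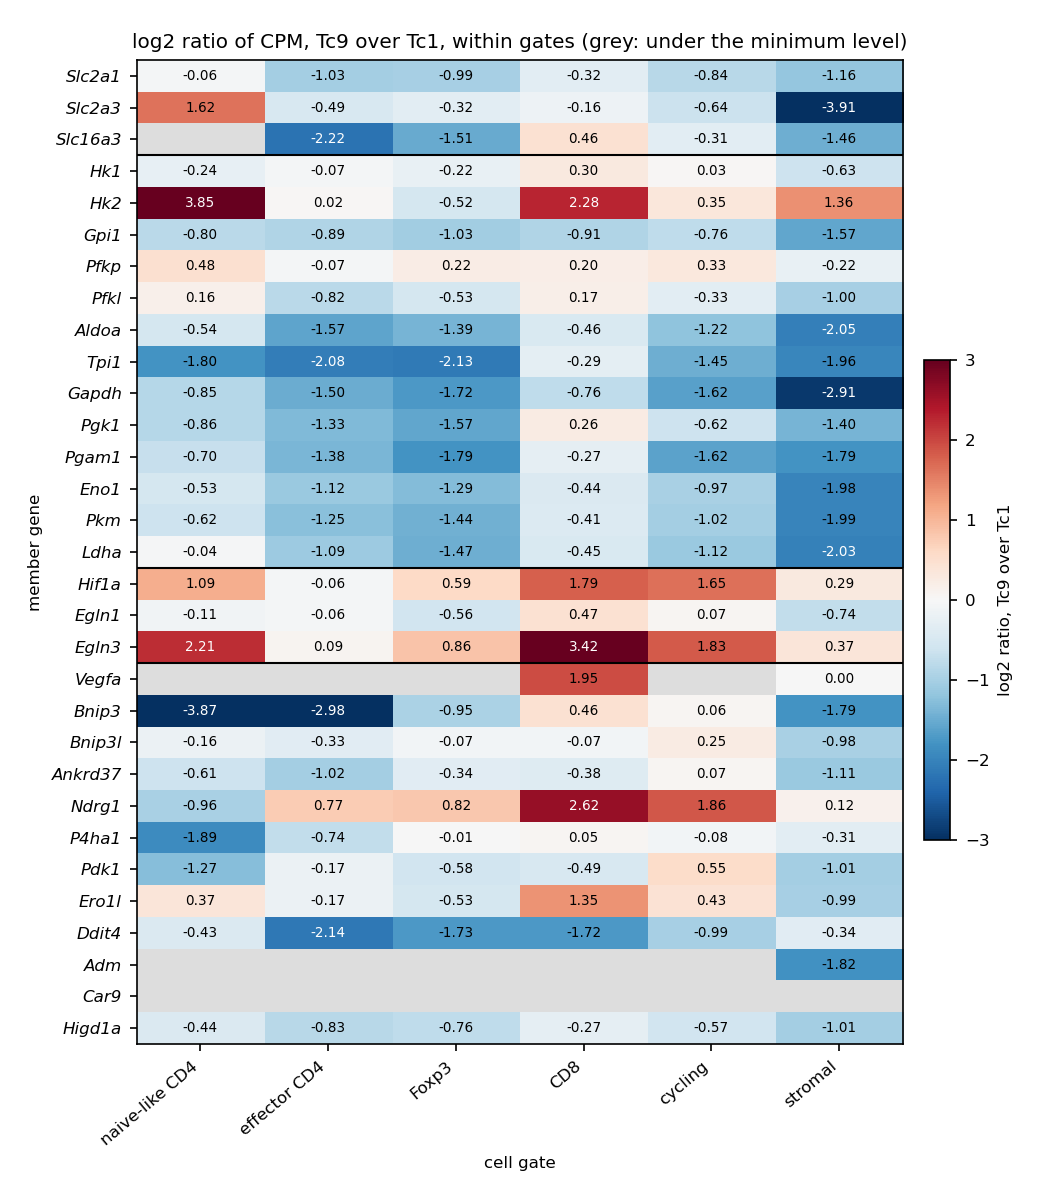
Log2 ratio of Tc9 over Tc1 CPM for each member (down) in the 6 gates with at least 50 cells in both libraries (across); grey squares fell under the minimum and colours stop at 3 in either direction. Blue squares, lower in Tc9, run through the enzymes in 5 gates, and the red squares of Hif1a, Egln3 and Ndrg1 stand in the CD8 and cycling gates.

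Among the glycolytic enzymes of effector CD4 cells, 10 of 13 were lower in Tc9 and none was higher, with a median log2 ratio of -1.12. Gapdh had 981 CPM in Tc9 cells and 2769 CPM in Tc1 cells, a log2 ratio of -1.50 (-1.54 to -1.46). Tpi1, which interconverts the products of aldolase, had 67.7 CPM in Tc9 and 287 CPM in Tc1 cells, a log2 ratio of -2.08 (-2.22 to -1.95). For both genes the interval lies far from 0. Aldoa, the aldolase that splits the sugar, had 362 CPM in Tc9 and 1079 in Tc1 cells, and Pgk1, which makes ATP from the product of Gapdh, had 137 and 344. Pgam1 (52.1 CPM in Tc9, 135 in Tc1), Eno1 (416 and 905), Pkm (252 and 597) and Ldha (485 and 1036), the steps down to lactate, lay between -1.38 and -1.09 on the log2 scale. The 3 enzymes within 1.5-fold were both hexokinases, which trap glucose in the cell, and a phosphofructokinase, the main control step. Hk1 had 74.0 CPM in Tc9 and 77.5 in Tc1 cells, Hk2 had 29.7 and 29.2, and Pfkp had 185 and 194. Pfkl, the other phosphofructokinase, was lower with 38.0 CPM in Tc9 and 66.9 in Tc1 cells, a log2 ratio of -0.82 that was -0.53, within 1.5-fold, with TMM scaling.

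In Foxp3 cells, the regulatory T cell gate, 9 of 13 enzymes were lower in Tc9 and none was higher. Tpi1 had 103 CPM in Tc9 Foxp3 cells and 452 in Tc1 Foxp3 cells (log2 ratio -2.13), and Pgam1 had 78.2 and 270 (-1.79). Gapdh had 1131 CPM in Tc9 and 3735 in Tc1 Foxp3 cells, and Ldha had 448 and 1239. Cycling cells had 9 of 13 lower, led by Gapdh with 1466 CPM in Tc9 and 4502 in Tc1 cells (-1.62). Naive-like CD4 cells had 6 of 13 lower, and Hk2 was higher on 14 Tc9 and 1 Tc1 UMIs. That log2 ratio of Hk2, 3.85, was 0.10 in wider T cell gates, which kept more barcodes mixed with myeloid RNA, and 1.22 with thinned cells. Ldha in these cells stayed within 1.5-fold, at 437 CPM in Tc9 and 447 in Tc1 cells. The enzyme sums were 3277 CPM in Tc9 and 7887 in Tc1 effector CD4 cells, 3681 and 10122 in Foxp3 cells, 4656 and 10651 in cycling cells, and 2464 and 3640 in naive-like CD4 cells.

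In CD8 cells 2 enzymes were lower in Tc9, Gpi1, which turns glucose phosphate into fructose phosphate (171 CPM in Tc9, 321 in Tc1) and Gapdh (1443 and 2447), and 1 was higher. That one was Hk2, which had 40.8 CPM in Tc9 and 8.38 in Tc1 CD8 cells, a log2 ratio of 2.28 (1.81 to 2.76), and 1.66 to 4.27 over the alternatives run. Hk2 made up 34.1% of the hexokinase pair in Tc9 and 11.5% in Tc1 CD8 cells, whereas the shares were 28.7% and 27.4% in effector CD4 cells. Tpi1 had 172 CPM in Tc9 and 211 in Tc1 CD8 cells, and Pgk1 had 295 and 246, both within 1.5-fold over the whole gate. Among cells with a shared receptor chain, Tpi1 had 196 CPM in Tc9 and 406 in Tc1, and Pgk1 320 and 446. Among cells without one, Tpi1 had 106 CPM in Tc9 and 201 in Tc1, and Pgk1 226 and 237. What the make-up of the gates brings to the whole-gate ratios was not tested.

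Stromal cells had the widest gap: 11 of 13 enzymes were lower in Tc9, with a median log2 ratio of -1.79. Gapdh had 440 CPM in Tc9 and 3300 in Tc1 stromal cells, a log2 ratio of -2.91 (-3.08 to -2.74). Hk2 again went the other way, with 140 CPM in Tc9 and 54.5 in Tc1 cells. The stromal gates differed in make-up, holding 68 fibroblasts and 24 endothelial cells in Tc9 against 36 and 32 in Tc1. In fibroblasts alone, 27 of 31 members were lower and 1 higher, against 20.3% and 36.6% of all genes, and Gapdh had a log2 ratio of -3.02. Median depth in the stromal gate was 6184 UMIs in Tc9 and 15866 in Tc1 cells. With each cell thinned to 2000 UMIs, 24 of 30 stromal members were lower and 1 higher, and Gapdh had a log2 ratio of -3.85. The share of all genes with thinned cells is not given.

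Of the transporters, Slc2a1, the common glucose importer, had 54.6 CPM in Tc9 and 111 in Tc1 effector CD4 cells (log2 ratio -1.03), and 48.3 and 96.1 in Foxp3 cells. Slc16a3 had 7.21 CPM in Tc9 and 33.5 in Tc1 effector CD4 cells, a log2 ratio of -2.22 (-2.62 to -1.80). It was also lower in Tc9 Foxp3 cells, with 25.3 CPM against 72.1 CPM in Tc1 Foxp3 cells (-1.51, and -0.94 with thinned cells). In CD8 cells none of the 3 transporters was 1.5-fold apart over the whole gate. Among CD8 cells without a shared receptor chain, Slc2a1 had 29.5 CPM in Tc9 and 60.2 in Tc1. There Slc2a3 had 47.2 CPM in Tc9 and 55.0 in Tc1, and Slc16a3 had 21.6 and 13.1. Slc2a3 was higher in Tc9 naive-like CD4 cells, on 30 Tc9 and 10 Tc1 UMIs, and lower in Tc9 stromal cells, on 1 and 27 UMIs. Its share of the pair with Slc2a1 was 52.7% in Tc9 and 41.1% in Tc1 Foxp3 cells, and 42.6% and 33.7% in effector CD4 cells.

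The oxygen-sensor genes did not follow the enzymes. Hif1a had 538 CPM in Tc9 and 561 in Tc1 effector CD4 cells, a log2 ratio of -0.06 (-0.14 to 0.02), beside the lower enzymes. It was higher in Tc9 Foxp3 cells, with 730 CPM against 486 in Tc1 (0.59, just past 1.5-fold, and 0.32 to 0.75 over the alternatives run), and in naive-like CD4 cells, with 349 against 164. The gap was widest in CD8 cells, with 483 CPM in Tc9 and 140 in Tc1 cells (1.79; 1.66 to 1.91), and in cycling cells, with 617 and 197 (1.65), where the Tc9 gate held more Treg and Cd4 RNA and the Tc1 gate more CD8 RNA. Egln3 had 56.2 CPM in Tc9 and 5.26 in Tc1 CD8 cells, a log2 ratio of 3.42 (2.91 to 3.93), the largest among measured CD8 members, and 2.51 in wider gates that kept more barcodes with myeloid RNA. It was also higher in Tc9 cycling cells (32.9 CPM against 9.26 in Tc1), Foxp3 cells (a log2 ratio of 0.86, but 0.02 in the wider gates) and naive-like CD4 cells, the last on 18 Tc9 and 4 Tc1 UMIs and with a log2 ratio of -0.36 in the wider gates. In effector CD4 cells Egln3 had 24.9 CPM in Tc9 and 23.3 in Tc1. Egln1 stayed within 1.5-fold in the 5 T cell gates and was lower in Tc9 stromal cells, with a log2 ratio of -0.74 (-0.52 with the total of genes under 20 kb). In Foxp3 cells Egln1, at -0.56, passed 1.5-fold in the wider gates (-0.62) and with thinned cells (-1.06).

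The hypoxia-responsive genes split. Bnip3, which marks mitochondria for removal, had 4.62 CPM in Tc9 and 36.4 in Tc1 effector CD4 cells, a log2 ratio of -2.98 (-3.42 to -2.54). Its relative Bnip3l had 139 and 174 CPM, so Bnip3 was 3.23% of the pair in Tc9 and 17.3% in Tc1 cells. In wider T cell gates, which kept more barcodes mixed with myeloid RNA, the log2 ratio of Bnip3 was -3.88 and that of Slc16a3 -2.98. Ddit4 had 30.3 CPM in Tc9 and 134 in Tc1 effector CD4 cells (-2.14; -2.34 to -1.94), 56.5 and 187 in Foxp3 cells, and 20.7 and 67.9 in CD8 cells. It was thus lower in Tc9 even in the CD8 gate. P4ha1, a collagen prolyl hydroxylase, had 40.4 CPM in Tc9 and 150 in Tc1 naive-like CD4 cells, and Pdk1 had 40.4 and 97.7. Higd1a, a mitochondrial membrane protein, and Ankrd37 were lower in Tc9 effector CD4 cells, with 114 CPM against 204 and 15.4 against 31.4 in Tc1. With TMM scaling the Higd1a log2 ratio was -0.55, within 1.5-fold.

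Ndrg1, a stress-responsive gene that hypoxia raises in many cell types, was the 1 member higher in Tc9 effector CD4 cells, with 29.5 CPM in Tc9 and 17.4 in Tc1 (0.77; 0.31 to 1.26). It had 53.5 CPM in Tc9 and 8.70 in Tc1 CD8 cells (2.62; 2.18 to 3.06), 41.4 and 11.4 in cycling cells, and 49.3 and 28.0 in Foxp3 cells. This direction depended on leaving out barcodes mixed with myeloid RNA: in the wider gates Ndrg1 had log2 ratios of -0.32 in effector CD4 cells and -0.09 in Foxp3 cells, and 1.47 in CD8 cells. Thinned to 2000 UMIs a cell, the effector CD4 and Foxp3 ratios were 0.38 and 0.40, under 1.5-fold. Ero1l, which forms disulfide bonds in the endoplasmic reticulum, had 104 CPM in Tc9 and 40.8 in Tc1 CD8 cells (1.35; 1.09 to 1.60), and 129 and 145 in effector CD4 cells. The CD8 ratio of Ero1l was 0.56 with thinned cells and 0.60 without shared receptor chains. Vegfa had 19.1 CPM in Tc9 and 4.94 in Tc1 CD8 cells, where it passed the minimum, but with the wider gates its log2 ratio there was -0.22. In effector CD4 cells it did not, at 3.08 and 8.05 CPM, and Adm (1 UMI in each library) and Car9 (5 Tc9 and 9 Tc1 UMIs) also fell under it. In fibroblasts Car9 had 0 Tc9 and 20 Tc1 UMIs, at least 5.07-fold lower in Tc9 with the Tc9 count set to 3.

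Subsets of the effector CD4 gate gave the enzyme gap each time. The sum was 4094 CPM in 554 Tc9 and 10744 CPM in 73 Tc1 cells with a type 2 cytokine UMI. It was 3023 CPM in 634 Tc9 and 7085 CPM in 122 Tc1 cells with an Ifng UMI, and 3062 and 7532 CPM in the 2005 Tc9 and 369 Tc1 cells with neither. Within each library the type 2 cytokine cells had the highest sum. Tc1 type 2 cytokine cells also had 16673 CPM of red cell genes, against 99.8 in Ifng cells and 1752 in cells with neither, and 1106 CPM of heat shock genes, against 736 and 665. Red cell genes in the Tc9 subsets were at most 1.39 CPM, and the part of either list was not tested. Hif1a, Egln1 and Egln3 together had 888 CPM in Tc9 and 974 in Tc1 type 2 cytokine cells, against 505 and 515 in Ifng cells.

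The CD8 gate could be split by receptor. A T cell receptor beta chain found in both receptor libraries, nearly all of it with TRBV14, was read in 131 of 196 Tc9 CD8 cells (66.8%) and 29 of 1403 Tc1 CD8 cells (2.07%). The CD8 gates thus differed in make-up. Whether cells with such a chain were the transferred Pmel-1 cells was not tested. In cells with such a chain the enzymes summed to 4620 CPM in Tc9 and 9609 in Tc1 cells, and Gapdh had 1567 and 4049 CPM. In cells without one, 65 in Tc9 and 1374 in Tc1, the enzyme sums were 3567 and 5895 CPM, and Gapdh had 1106 and 2370. Hif1a and Ndrg1 were higher in Tc9 on both sides: Hif1a had 525 CPM in Tc9 and 165 in Tc1 cells with a shared chain, and 368 and 139 without. Ndrg1 had 61.6 and 11.8 CPM with, and 31.5 and 8.55 without. Only 29 Tc1 cells carried a shared chain, and Egln3 had 62.3 CPM in Tc9 and 2.36 in Tc1 cells of that kind. In those 29 Tc1 cells Egln3 rests on 1 UMI and Ndrg1 on 5.

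**Figure D4:**
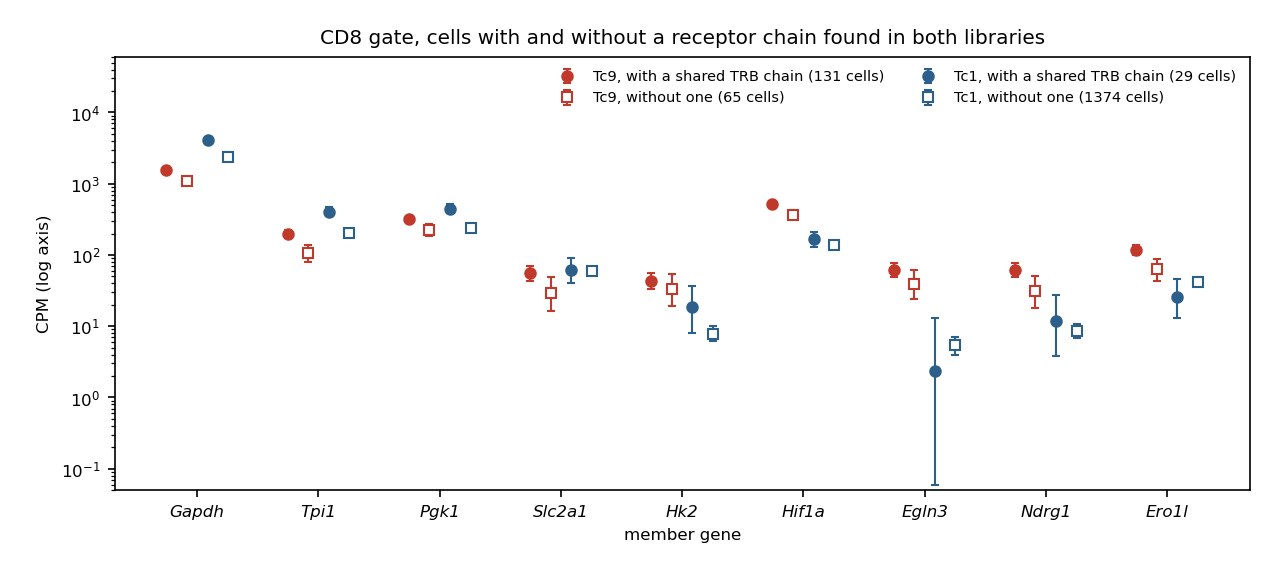
Levels in CPM (log axis) of 9 genes in CD8 cells of Tc9 (red) and Tc1 (blue), with a receptor beta chain found in both receptor libraries (filled) or without (open). Hif1a, Egln3, Ndrg1 and Hk2 lie higher in Tc9 in both kinds of cell, and Gapdh and Tpi1 lie lower. In Tc1 cells with a shared chain Egln3 rests on 1 UMI, Ndrg1 on 5 and Hk2 on 8. The Hk2 intervals of Tc9 and Tc1 cells with a shared chain overlap.

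Split by surface checkpoint genes, CD8 cells with a checkpoint UMI had an enzyme sum of 4635 CPM in Tc9 (133 cells) and 8455 in Tc1 (311 cells). Effector CD8 cells without one had 3395 CPM in 55 Tc9 and 5421 in 877 Tc1 cells. Naive-like CD8 cells, with 8 in Tc9 and 215 in Tc1, had 3340 and 3374 CPM. With the naive-like cells left out, 3 of 29 members were lower in Tc9 and 6 higher, against 21.7% and 14.4% of all genes.

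Gene length moved with the ratios. Most enzymes are short genes: Tpi1 spans 3.57 kb (chromosome 6, 124810586 to 124814158) and Gapdh 4.62 kb (chromosome 6, 125161852 to 125166467) in RefSeq GRCm38.p6, while Hk1 spans 111 kb on chromosome 10 and Hif1a 46.2 kb on chromosome 12. In effector CD4 cells the median log2 ratio of all genes was -0.43 for spans under 5 kb and 0.19 over 100 kb, and 38.3% of the genes under 5 kb were lower in Tc9 against 4.81% over 100 kb. All 12 measured members under 20 kb were lower, against 38.3% of all genes under 5 kb, 32.7% from 5 to 10 kb and 25.3% from 10 to 20 kb. The members' medians in these classes were -1.79, -1.38 and -1.33, each below that of all genes in the same class (-0.43, -0.41 and -0.29). Of the 12 members from 20 to 50 kb, 4 were lower in Tc9, against 14.5% of all genes in that class, and the median of the 12 was -0.17. In CD8 cells 2 of the 13 measured members under 20 kb were lower, against 31.6% of all genes under 5 kb, 34.4% from 5 to 10 kb and 24.5% from 10 to 20 kb. Genes under 20 kb took 62.5% of UMIs in Tc9 and 64.5% in Tc1 effector CD4 cells. With their total as the denominator, all log2 ratios moved by 0.045, and 17 members were again lower and 1 higher, with Gapdh at -1.45, and the share of all genes is not given. Such a common shift does not adjust a gene for its own span, and the part of gene length in the result was not tested.

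**Figure D5:**
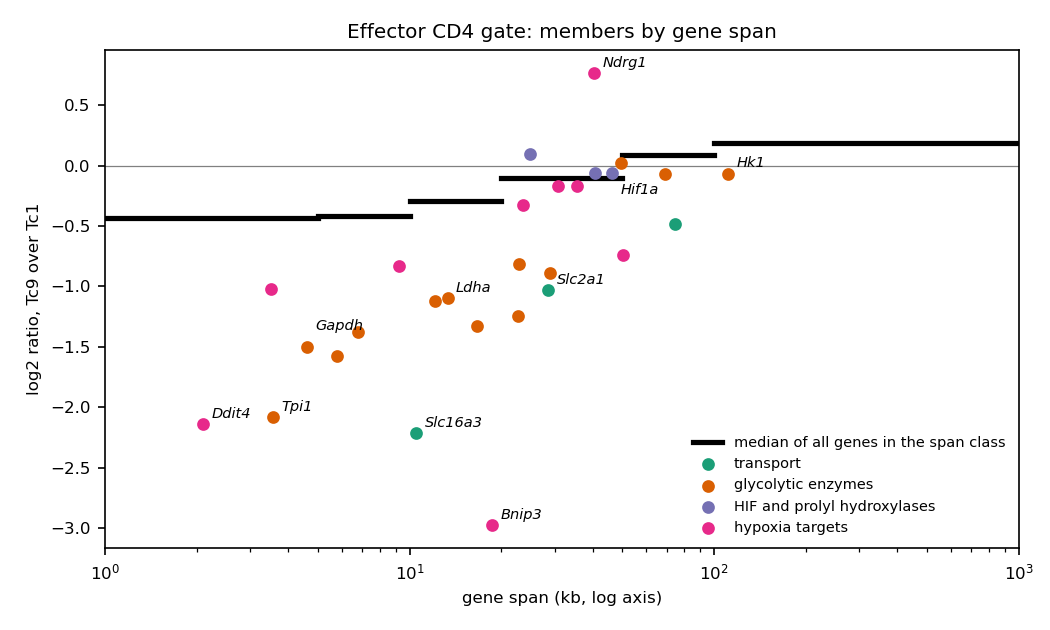
Log2 ratio of Tc9 over Tc1 CPM in effector CD4 cells against gene span in kb (log axis) for the measured members; black lines give the median of all genes in each span class. The members under 20 kb lie below those lines, and Hk1, Hif1a and Pfkp lie near 0.

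Markers of other cell types differed between the libraries in the same gates. In Tc1 effector CD4 cells, macrophage and melanoma markers stood at 4.02% of their level in the whole Tc1 library, which, as RNA freed from broken cells, would bring 245 of the 2769 CPM of Gapdh and 8.05 of the 36.4 CPM of Bnip3. In Tc9 effector CD4 cells the same estimate was 15.8% of the level in the whole Tc9 library, which would bring 160 CPM of Gapdh. The gate rules already limited these markers, which caps both estimates, and red cell genes were left out of them. With each library's own share subtracted the Gapdh log2 ratio was -1.43, and the counts in effector CD4 cells were again 17 lower and 1 higher. Among effector CD4 cells with no UMI of those markers or of red cell genes, 3032 in Tc9 and 119 in Tc1, 17 members were lower and 2 higher, and the log2 ratio was -1.47 for Gapdh, -2.29 for Bnip3 and -1.48 for Slc16a3. The shares of all genes after the subtraction and among these cells are not given, so the counts are a description. For Vegfa in Tc1 effector CD4 cells, 5.42 of its 8.05 CPM would be free RNA. The same share is poorly known in Tc9, whose library held 52.4 CPM of these markers against 6531 CPM in Tc1. Heat shock genes summed to 179 CPM in Tc9 and 737 in Tc1 effector CD4 cells, 41.0 and 371 in Foxp3 cells, and 94.8 and 267 in CD8 cells, and their part in the result was not tested.

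Other genes of the pathways were counted from lists that leave the members out. Of 10 further glycolysis genes measured in effector CD4 cells, 2 were lower in Tc9 and none higher, a share near the 19% of all genes lower in that gate. They were Ldhb, the other lactate dehydrogenase, with 2.88 CPM in Tc9 and 17.4 in Tc1, and Pgm1, which feeds glycogen sugar into glycolysis, with 18.3 and 33.0. In Foxp3 cells 7 of 10 were lower, against 20.5% of all genes. A further list mixed parts of the hypoxia-inducible factor pathway with genes linked to hypoxia. Of its 26 measured genes, 14 were lower and none higher in Tc9 effector CD4 cells, against 19% and 6.6% of all genes. They were led by the heme oxygenase Hmox1 with 1.54 CPM in Tc9 and 25.4 in Tc1, the arginase Arg1 with 5.27 and 44.5, and the metallothionein Mt1 with 16.0 and 90.2. Hmox1 and Arg1 are strongly made by macrophages. In CD8 cells 6 of 28 measured genes of this list were lower, near the 20% of all genes, and 9 higher, against 15.1%.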

How the data were processed

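Gene by cell counts of UMIs from 2 droplet RNA libraries (1 Tc9, 1 Tc1; 5′ kit) were used as deposited. Per the submitters' processing notes the authors used Cell Ranger 7.0.0 and the mouse build mm10. The Tc9 library held 8449 barcodes and 50713493 UMIs, and the Tc1 library 13406 barcodes and 106053410 UMIs. The deposited receptor contig tables, with their UMI counts, were used only to find beta chains read in both libraries. Their other columns were not used.

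Barcodes were kept from 500 genes up and to 10% of UMIs from mitochondrial genes. The libraries shared 148 barcodes, 127 of them kept in both, and no doublet caller was run. T cells needed 3 Cd3 UMIs. Naive-like cells needed 3 naive-marker UMIs and more of these than effector ones, and effector cells 3 effector-marker UMIs. Foxp3 cells needed 1 Foxp3 UMI and CD8 cells 2 Cd8 UMIs. T cell and NK gates left out barcodes with 10 or more macrophage-marker UMIs per 10000, or 5 or more of 8 other myeloid genes. The gate limits were set with the data in hand, and the members and lists were chosen with earlier results of these data known.

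UMIs were summed per gate and divided by the gate's total. With 1 library a group no test was made. Intervals are exact Poisson, or exact conditional (Clopper-Pearson) for a ratio, at 95%. A gene with 0 UMIs in a library is given against 3 counts in that library. All 31 members are named, and from each other list up to 4 genes with the largest ratio in effector CD4 cells. Reads of Eno1 and its near copy Eno1b, and of a second Aldoa identifier, could be split in counting: Eno1 had 20572 Tc9 and 185104 Tc1 UMIs against 149 and 940 for Eno1b, and the second Aldoa identifier had 6 and 16. Gene spans and promoters came from RefSeq GRCm38.p6, and promoters of Slc2a3, Bnip3l and Ndrg1 are not shown. The alternatives were other scalings (TMM from edgeR 4.0.16 in R 4.3.3, median ratios, totals without some genes), other filters on cells and levels, thinning to 2000 UMIs, free RNA and gate changes. Wider T cell gates, the total of genes under 20 kb, CD8 cells without naive-like ones, fibroblasts alone and cell subsets were chosen after seeing the data. Scripts used numpy 2.4.6, scipy 1.17.1, pandas 2.3.3 and matplotlib 3.10.9 and were tested on simulated data.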

Additional observations from a re-analysis of the deposited data

Results flagged for a closer look

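For 3 members the Tc9 over Tc1 ratio was at least 1.5-fold in opposite directions in different gates. The share of all genes with such a pattern is not given. With 1 library a group, the difference between gates was not tested. Slc2a3 had a log2 ratio of 1.62 in naive-like CD4 cells, on 30 Tc9 and 10 Tc1 UMIs, and -3.91 in stromal cells, on 1 and 27 UMIs, a gap of 5.54. Ndrg1 had 2.62 in CD8 cells and -0.96 in naive-like CD4 cells, a gap of 3.58, and the naive-like value rests on 6 Tc9 and 12 Tc1 UMIs with an interval that includes 0 and was -0.51, within 1.5-fold, with thinned cells. Ero1l had 1.35 in CD8 cells and -0.99 in stromal cells, a gap of 2.34.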

How the results depend on the processing

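Counts of members 1.5-fold apart were recomputed under up to 17 alternatives a gate. Except where printed above, the shares of all genes under the alternatives are not given, so these counts are a description. The number lower in Tc9 ranged from 13 to 20 in effector CD4, 11 to 19 in Foxp3, 4 to 17 in naive-like CD4, 6 to 13 in cycling, 18 to 26 in stromal and 1 to 9 in CD8 cells. The stromal highest is fibroblasts alone, over the 30 members measured in the whole gate. The number of genes highest outside T cells was 27 under each of 3 alternatives. At 2-fold the lower counts were 4 in naive-like CD4, 1 in CD8 and 6 in cycling cells, and the higher counts 0 in effector CD4 and 0 in Foxp3 cells. A minimum of 50 CPM left 1 higher in naive-like CD4, 0 in effector CD4, 1 in Foxp3, 2 in CD8 and 1 in cycling cells, and no minimum gave 6 higher in cycling cells. Wider T cell gates gave 17 lower and 2 higher in naive-like CD4, 0 higher in effector CD4, 0 higher in Foxp3 and 5 lower in CD8 cells. Among ratios of at least 1.5-fold they turned the sign of 4: Egln3 in naive-like CD4 (-0.36), Ndrg1 in effector CD4 (-0.32) and Foxp3 (-0.087), and Vegfa in CD8 cells (-0.22); in those gates Arg1 in Tc1 effector CD4 cells stood at 29.9% of its level in the whole library, against 5.69% in the gates used. Barcodes with no marker UMI gave 2 higher in effector CD4 and 5 lower in CD8 cells. Leaving out shared TRB chains gave 9 lower in CD8 cells. Thinning gave 0 higher in effector CD4, 0 in Foxp3, 6 in cycling and 5 lower in CD8 cells. Stricter markers gave 1 higher in Foxp3 cells, and the total of genes under 20 kb gave 2 higher in stromal cells. The cause of these changes was not tested. TMM moved all log2 ratios by 0.29 in effector CD4, 0.16 in Foxp3, -0.11 in cycling and -0.20 in stromal cells, median ratios by 0.14 in effector CD4, -0.11 in naive-like CD4 and -0.14 in stromal cells, totals without some genes by -0.12 in naive-like CD4 cells, and the total of genes under 20 kb by 0.14 in naive-like CD4, 0.14 in Foxp3, 0.13 in cycling and 0.22 in stromal cells. Gapdh in effector CD4 cells lay at -1.21 under TMM and -1.63 in the wider gates, the ends of its range. Of 2529 member ratios recomputed, 289 moved beyond their interval. Of 97 ratios of at least 1.5-fold, 4 changed sign under at least 1 alternative, and of 73 within 1.5-fold, 37 did, and those 37 have no set direction. The stricter gate in naive-like CD4 cells, and barcodes with no marker UMI in naive-like CD4, Foxp3 and cycling cells, were not run because under 50 cells were left. No paired analysis was possible because each group has 1 library. Adm and Car9 in the T cell gates, and Vegfa in those other than CD8, stayed under the minimum level.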

Other observations

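The pentose phosphate branch, which draws on the same glucose to make NADPH and ribose, had 3 of 7 measured genes lower in Tc9 effector CD4 cells and none higher, against 19% and 6.6% of all genes. Tkt had 61.5 CPM in Tc9 and 107 in Tc1 cells, and Pgd 19.1 and 30.1, while the log2 ratio of Taldo1 was -0.77. Over the 6 gates 2 to 4 of its genes were lower and none was higher, where 16.8% to 21.5% of all genes were lower. Of 9 regulators of glycolysis in effector CD4 cells 1 was lower and 1 higher, against 19% and 6.6% of all genes. Slc7a5, an amino acid transporter, was higher in Tc9 (50.3 CPM, 22.5 in Tc1) and Trp53 was lower (61.4 and 93.6).

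Of 14 measured genes known to respond to tissue dissociation, 5 were lower in Tc9 effector CD4 cells and none higher, against 19% and 6.6% of all genes, with Hspa1a at 63.8 CPM in Tc9 and 290 in Tc1 cells and Hspa1b at 115 and 447. In CD8 cells 2 of 14 were lower and 7 higher, against 20% and 15.1% of all genes.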
